A study of Mus musculus with 15 samples.

Results

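Cholesterol that a myeloid cell takes up either leaves the cell again or enters a lipid droplet, and the data below follow 10 genes along both routes in myeloid cells sorted from the mouse brain. The genes were chosen by symbol, as *Abca1* and *Abcg1* for efflux, *Nr1h2*, *Nr1h3* and *Mylip* for its control by the liver X receptors (LXRs), *Lipa*, *Npc1* and *Npc2* for release from the lysosome, and *Soat1* and *Plin2* for storage. They are 10 of the 38924 genes listed in the expression tables, each on 1 row, and all 10 were among the 14967 genes kept by a filter on low counts (at least 1 cpm, a count scaled to the size of its library, in at least 2 libraries). *Nr1h3* passed that filter only through 2 libraries of one group.

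The libraries came from wild type C57BL/6J (B6) mice killed at 12 months of age, which by the study's methods were males given a control chow diet (CD) throughout or a western diet (WD) from 2 months of age. Brain cells positive for the myeloid surface protein CD11b were parted by FACS into cells with a high (CD45hi) or low (CD45lo) level of the leukocyte protein CD45, and poly(A) RNA was sequenced. There were 4 libraries of CD45hi and 4 of CD45lo cells from CD-fed mice, and 3 of CD45hi and 4 of CD45lo cells from WD-fed mice. Each library is a bulk sample of a gate and not of one cell type, so fewer cells of a type and less RNA per cell cannot be told apart. The study describes the deposited counts as those of single animals, and the labels do not tie CD45hi to CD45lo libraries of one animal.

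Cells cannot break down the sterol ring of cholesterol, so they either export it or esterify it. Oxysterols formed from surplus cholesterol activate the LXRs, nuclear receptors that pair with the retinoid X receptors and switch on genes of efflux and of lipid handling. Lysosomes return cholesterol from lipoproteins and engulfed debris such as myelin to this pool, and what is not exported is stored as cholesteryl ester in droplets. LXR targets and the droplet coat are commonly measured as readouts of sterol load, and the question here was whether they differed with the diet and between the sorted cells.

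The promoters of *Abca1*, the reference LXR target, and of *Plin2*, the gene of the set that was called between cell types, are shown because of the 8 genes with an entry they were the only ones with a match to any of the letters searched. RefSeq promoter windows of 300 bases (250 before and 50 after the start, build GRCm38.p6) were matched for 8 of the 10 genes, without *Abcg1* and *Npc1*. The site AGGTCA was searched on both strands as a pair with 4 bases between (DR4, the spacing that LXRs bind) and with 1 base between (DR1, the spacing that peroxisome proliferator-activated receptors bind), each with up to 3 mismatches, and the E-box CACGTG was searched without mismatch. The *Abca1* window lies at chr4:53159846-53160145 on the minus strand, and capitals mark the E-box and then the DR4 match, read on the opposite motif strand with 3 mismatches and starting 67 bases before the start. The *Plin2* window lies at chr4:86670010-86670309 on the minus strand, and capitals mark the DR1 match, with 2 mismatches, and then an E-box that spans the start.
Abca1: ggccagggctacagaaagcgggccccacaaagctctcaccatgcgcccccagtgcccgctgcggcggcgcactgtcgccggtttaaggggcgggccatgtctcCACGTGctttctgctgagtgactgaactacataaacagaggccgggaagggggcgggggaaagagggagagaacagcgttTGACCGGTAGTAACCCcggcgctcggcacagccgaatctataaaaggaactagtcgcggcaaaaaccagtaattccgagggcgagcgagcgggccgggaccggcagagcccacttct
Plin2: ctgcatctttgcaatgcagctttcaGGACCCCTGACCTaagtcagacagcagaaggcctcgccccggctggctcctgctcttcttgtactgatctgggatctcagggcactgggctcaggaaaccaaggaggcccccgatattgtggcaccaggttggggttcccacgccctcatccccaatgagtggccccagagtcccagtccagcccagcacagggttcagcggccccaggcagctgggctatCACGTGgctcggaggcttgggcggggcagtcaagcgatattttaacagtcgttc
Of 32841 promoter windows of this length, 21.9% held a DR4 match at this limit, 24.6% a DR1 match and 7.15% the E-box. A match is a description of the letters and no evidence of binding.

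Libraries held 11951412 to 17912272 expected counts in total, so 3 counts, taken as the smallest measurable value, equal 0.156 to 0.282 cpm; this floor covers counting error only. The summed level of 8 microglial markers was 5641 to 6886 cpm in the 7 CD45hi libraries and 12000 to 15320 cpm in the 8 CD45lo libraries. In the same order the sums were 390 to 778 and 11.4 to 51.1 cpm for 6 monocyte markers, 669 to 2857 and 48.0 to 336 cpm for 8 neutrophil markers, 620 to 2349 and 53.8 to 206 cpm for 6 border macrophage markers, and 160 to 445 and 24.3 to 39.4 cpm for 5 dendritic cell markers. Of 7 lymphocyte markers, *Cd3e* and *Cd3g* were at 0 in every library of the other groups and had a median of 0 in CD45hi cells from CD-fed mice, and the list summed to 11.7 to 97.5 cpm in CD45hi cells. On the second principal component, 2 CD45hi libraries stood apart, CD replicate 4 at 93.0 and WD replicate 1 at -135, while the other 13 lay between -4.50 and 21.5. Every contrast of CD45hi with CD45lo cells below moves with all of these marker lists, and their part in each result was not tested.

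*Plin2*, at chr4:86648386-86670060 on the minus strand, encodes perilipin 2, the protein that coats lipid droplets in most cells. In CD-fed mice it had 56.2, 74.9, 35.6 and 45.3 cpm in the CD45hi libraries and 21.3, 12.4, 8.11 and 20.7 cpm in the CD45lo libraries. The corresponding levels with the WD were 140, 62.5 and 85.6 cpm in CD45hi and 6.82, 15.4, 12.1 and 8.18 cpm in CD45lo cells. Every CD45hi library was above every CD45lo library, and the highest level was that of WD CD45hi replicate 1, a library that stood apart on the second principal component. *Plin2* was 3.40-fold higher in CD45hi than in CD45lo cells of CD-fed mice (log2 fold change 1.76, SE 0.393, edgeR's glmTreat, FDR = 0.0358) and 9.02-fold higher in WD-fed mice (3.17, SE 0.429, edgeR's glmTreat, FDR = 0.000328). Without both libraries that stood apart the log2 fold changes were 1.83 (edgeR's glmTreat, FDR = 0.0352) and 2.80 (edgeR's glmTreat, FDR = 0.00204).

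The *Plin2* difference in CD-fed mice did not hold under every alternative. It missed the threshold without CD45hi replicate 1 (edgeR's glmTreat, FDR = 0.0621) or 2 (0.0920), without CD45lo replicate 2 (0.128), 3 (0.113) or 4 (0.0521), with limma-voom (0.0856), with only the 2 groups compared (0.0571), with a replicate block by titles (0.0665) or by file name numbers (0.0532), and with limma on log2(TPM + 1) (0.440), which makes 10 of 31 alternatives, with log2 fold changes of 1.55 to 1.95 over the fits that left out 1 library. In WD-fed mice it passed under all 31 alternatives.

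*Soat1*, at chr1:156424525-156474331, encodes the enzyme that esterifies cholesterol in the endoplasmic reticulum for storage. It had 153, 162, 188 and 89.4 cpm in CD45hi and 131, 128, 107 and 121 cpm in CD45lo cells of CD-fed mice. Under the WD it had 103, 243 and 76.2 cpm in CD45hi and 115, 122, 131 and 112 cpm in CD45lo cells. The CD45hi libraries lay on both sides of the CD45lo libraries on either diet, so *Soat1* did not share the separation seen for *Plin2*. The log2 fold change was 0.28 (SE 0.290) in CD-fed and 0.23 (SE 0.312) in WD-fed mice, with 95% intervals of -0.33 to 0.89 and -0.43 to 0.89. *Soat1* overlaps *Gm37648* on the opposite strand, strand use in counting is not given in the sources used here, and 14 of 15 libraries had a count that was not whole, so part of its reads was shared out by the authors' software.

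**Figure D1:**
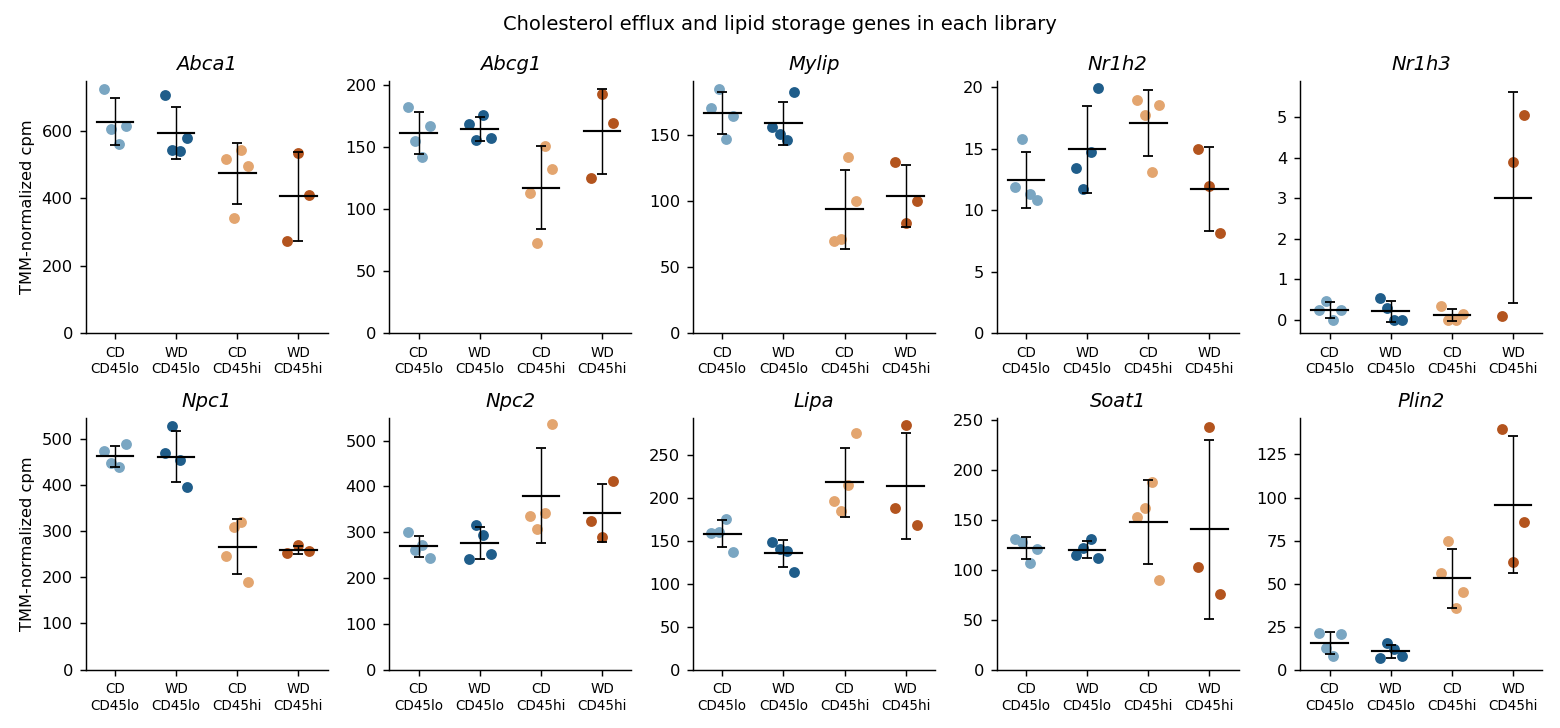
Each panel plots one gene as TMM-normalized cpm on a linear axis (points are libraries, bars the mean and SD, n = 4 except 3 for WD CD45hi). *Plin2* separated the CD45hi from the CD45lo libraries on both diets (35.6 to 140 against 6.82 to 21.3 cpm), *Npc1* and *Mylip* separated them the other way, and for the 2 diets the points of every gene overlapped within a cell type.

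*Npc1*, at chr18:12189692-12236400, encodes the membrane transporter that passes cholesterol out of the lysosome. It had 247, 308, 319 and 190 cpm in CD45hi and 472, 446, 439 and 488 cpm in CD45lo cells of CD-fed mice. With the WD its levels were 252, 269 and 257 cpm in CD45hi and 468, 528, 453 and 395 cpm in CD45lo cells. The groups did not overlap on either diet, and the CD45hi level was 0.577-fold that of CD45lo cells in CD-fed mice (log2 fold change -0.79, SE 0.154) and 0.563-fold in WD-fed mice (-0.83, SE 0.169). The differences from 0 had an FDR of 0.00277 and 0.00392 (edgeR glmQLFTest), and neither passed the 1.5-fold threshold (edgeR's glmTreat, FDR = 0.261 and 0.193). *Npc1* shares its locus with *Rmc1* and *Gm15956* on the opposite strand, and its count was not whole in 15 of 15 libraries.

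*Npc2*, at chr12:84754562-84773152, encodes the soluble lysosomal protein that hands cholesterol to NPC1. It had 336, 307, 342 and 535 cpm in CD45hi and 300, 262, 273 and 245 cpm in CD45lo cells of CD-fed mice, and 325, 290 and 412 cpm in CD45hi and 243, 316, 294 and 253 cpm in CD45lo cells of WD-fed mice. The log2 fold change of *Npc2* was 0.50 (SE 0.178, edgeR's glmTreat, FDR = 0.916) in CD-fed mice, with CD45hi libraries all above the CD45lo ones, and 0.31 (SE 0.191, edgeR's glmTreat, FDR = 0.961) in WD-fed mice, where they overlapped. Without the libraries that stood apart, one of which was CD CD45hi replicate 4 with the highest *Npc2* level, the values were 0.29 and 0.35.

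*Lipa*, at chr19:34492318-34527474, encodes lysosomal acid lipase, which frees cholesterol from the esters of engulfed lipoproteins. Its levels were 197, 185, 214 and 275 cpm in CD45hi and 160, 160, 176 and 137 cpm in CD45lo cells of CD-fed mice. WD-fed mice had 188, 285 and 169 cpm in CD45hi and 149, 141, 138 and 114 cpm in CD45lo cells. CD45hi libraries were above all CD45lo libraries on both diets, by a log2 fold change of 0.46 (SE 0.186) and 0.66 (SE 0.199). The difference from 0 passed in WD-fed mice (edgeR's glmQLFTest, FDR = 0.0463) and not in CD-fed mice (0.158), and the 1.5-fold threshold was passed in neither (edgeR's glmTreat, FDR = 0.949 and 0.511, CD-fed first).

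*Abca1*, at chr4:53030787-53159895, encodes the transporter that loads cholesterol onto lipid-poor apolipoproteins. It had 516, 342, 542 and 496 cpm in CD45hi and 725, 606, 561 and 614 cpm in CD45lo cells of CD-fed mice. Its levels with the WD were 272, 535 and 410 cpm in CD45hi and 708, 545, 541 and 580 cpm in CD45lo cells. The CD45hi libraries were below the CD45lo libraries on both diets, by a narrow gap in each case. The log2 fold changes of -0.40 (SE 0.189) and -0.55 (SE 0.206) did not pass the 1.5-fold threshold (edgeR's glmTreat, FDR = 0.987 and 0.704) or a test against 0 (edgeR's glmQLFTest, FDR = 0.243 and 0.109).

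*Abcg1*, at chr17:31057675-31117988, encodes the transporter that moves cholesterol towards mature high-density lipoprotein. It had 113, 72.9, 151 and 132 cpm in CD45hi and 182, 155, 142 and 167 cpm in CD45lo cells of CD-fed mice. The WD libraries had 125, 193 and 170 cpm in CD45hi and 168, 155, 176 and 158 cpm in CD45lo cells. The groups overlapped on both diets. The log2 fold change was -0.46 (SE 0.204, edgeR's glmTreat, FDR = 0.937) in CD-fed mice and -0.02 (SE 0.220, edgeR's glmTreat, FDR = 1.00) in WD-fed mice, and the latter turned to 0.14 without the libraries that stood apart.

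*Mylip*, at chr13:45389742-45412022, is an LXR target whose product is a ubiquitin ligase that limits lipoprotein uptake. It had 69.6, 71.1, 133 and 100.2 cpm in CD45hi and 170, 185, 147 and 164 cpm in CD45lo cells of CD-fed mice. On the WD it had 129, 82.9 and 99.6 cpm in CD45hi and 156, 151, 146 and 182 cpm in CD45lo cells. CD45hi libraries were below CD45lo libraries throughout. The log2 fold change was -0.83 (SE 0.213) in CD-fed mice, different from 0 (edgeR's glmQLFTest, FDR = 0.0215) but not beyond 1.5-fold (edgeR's glmTreat, FDR = 0.333), and -0.61 (SE 0.232, edgeR's glmTreat, FDR = 0.606) in WD-fed mice.

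*Nr1h2*, at chr7:44549616-44553951, encodes LXR beta, the widely expressed receptor. It had 19.0, 17.7, 13.1 and 18.6 cpm in CD45hi and 11.9, 15.8, 11.3 and 10.8 cpm in CD45lo cells of CD-fed mice. After WD feeding it had 14.96, 12.0 and 8.13 cpm in CD45hi and 13.4, 11.7, 14.8 and 19.9 cpm in CD45lo cells. The groups overlapped on both diets, with log2 fold changes of 0.46 (SE 0.382) and -0.36 (SE 0.416).

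*Nr1h3*, at chr2:91184061-91202834, encodes LXR alpha, the receptor found mainly in liver, fat and macrophages. It was close to the smallest measurable value in all libraries but a pair. The expected counts were 5, 0, 0 and 2 in CD45hi and 4, 9, 0 and 4 in CD45lo cells of CD-fed mice, and 8, 4, 0 and 0 in CD45lo cells of WD-fed mice. In WD CD45hi cells they were 1, 58 and 66, or 0.0941, 3.89 and 5.06 cpm. The library with 1 count was replicate 1, the one that stood apart, and its 6 border macrophage markers summed to 620 cpm, against 2349 cpm in replicate 2 and 1634 cpm in replicate 3. Some other lists were also lowest there, with 57.5, 241 and 160.5 cpm in replicates 1 to 3 for 4 astrocyte markers (38.8 to 86.1 cpm in CD45hi cells of CD-fed mice) and 24.6, 45.9 and 97.5 cpm for 7 lymphocyte markers (11.7 to 41.7 cpm). The endothelial and pericyte list was too (31.9, 36.5 and 58.5 cpm). Replicate 1 was not the lowest for the microglial (6516, 6677 and 6244 cpm), monocyte (569, 778 and 472 cpm) or neutrophil list (907, 669 and 1335 cpm). Nor was it for the dendritic cell (267, 445 and 218 cpm), oligodendrocyte (183, 94.5 and 224 cpm) or neuron list (6.30, 0.134 and 6.36 cpm). The CD45hi cells of CD-fed mice had sums of 1710 to 1863 cpm for the border macrophage markers with 0 to 5 counts of *Nr1h3*. The part of these markers in the *Nr1h3* counts was not tested. The WD CD45hi libraries overlapped those of each other group. Since the gene passed the filter on low counts through the 2 libraries where it was high, no fold change or test is given for it.

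Between CD45hi and CD45lo cells, 1 of the 10 genes was called higher and 0 lower on each diet, and it was *Plin2* both times. Over all genes tested, 3.39% were called higher and 0.588% lower in CD-fed mice, and 4.01% and 1.17% in WD-fed mice. Without the 1.5-fold threshold, 3 of 10 were called on each diet, *Plin2*, *Npc1* and *Mylip* in CD-fed and *Plin2*, *Npc1* and *Lipa* in WD-fed mice, against 8.03% and 9.12% of all genes. The groups did not overlap for 6 of 10 genes in CD-fed mice (*Abca1*, *Mylip*, *Npc1*, *Npc2*, *Lipa* and *Plin2*), where 16.5% of all genes did not overlap. In WD-fed mice this held for 5 of 10 (the same without *Npc2*), where the share of all genes was 23.4%. The median log2 fold change of the 10, with *Nr1h3* among them, was -0.06 and 0.11, and that of all genes 0.04 and 0.

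**Figure D2:**
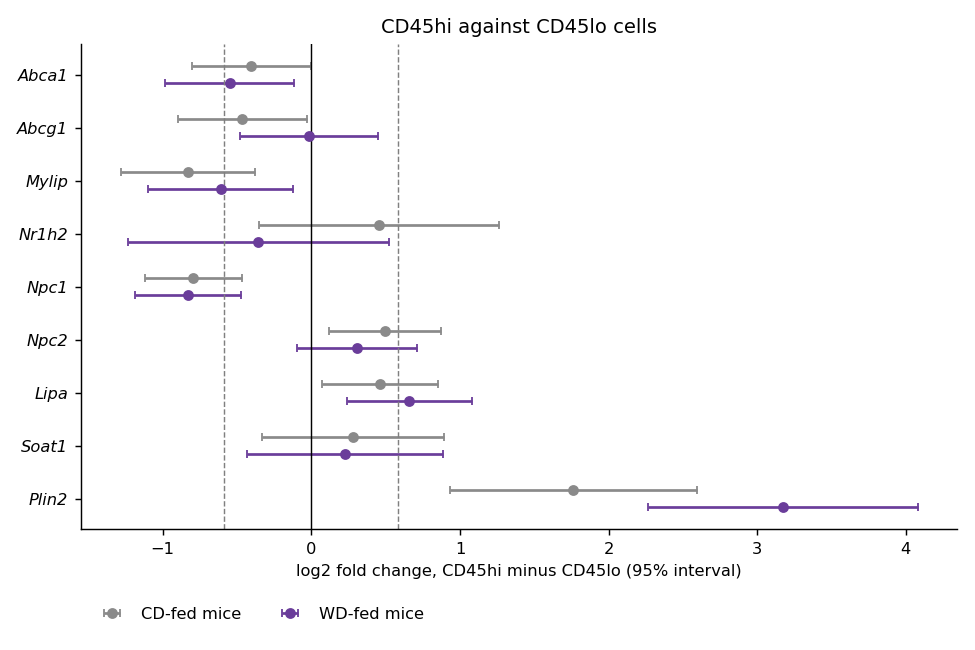
Log2 fold changes of CD45hi over CD45lo cells with 95% intervals, for CD-fed (grey) and WD-fed mice (purple), with dashed lines at 1.5-fold; *Nr1h3* is left out for its low counts. The intervals of *Plin2* (0.93 to 2.59 and 2.27 to 4.08) lie beyond the line. Those of *Npc1*, *Mylip* and *Abca1* lie below 0 and across the line on both diets, and those of *Lipa* above 0 and across it. The intervals of *Abcg1* (below 0) and *Npc2* (above 0) do so in CD-fed mice only, and those of *Soat1* and *Nr1h2* include 0.

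Levels can be compared between genes only per transcript length, for which the deposited TPM values were used. In CD45lo cells *Npc1* had the highest mean TPM of the set on both diets (338 in CD-fed and 337 in WD-fed mice), with no overlap with the next gene, *Abca1* (184 and 181), which in turn overlapped *Npc2* (165 and 170). *Mylip*, *Lipa* and *Abcg1* formed the next tier, between 91.9 and 109 mean TPM, and overlapped one another. *Soat1* stood at 49.9 and 49.3, *Plin2* at 33.4 and 23.1, *Nr1h2* at 20.1 and 23.2, and *Nr1h3* at 0.283 and 0.475.

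In CD45hi cells the order was different. *Plin2* stood 8th and 9th in CD45lo cells, 4th in CD45hi cells of CD-fed mice with 87.8 TPM (48.2 to 143), and 1st in CD45hi cells of WD-fed mice with 162 TPM (79.2 to 275). In the latter it overlapped *Npc2* (144), *Npc1* (117), *Lipa* (98.7) and *Abca1* (69.9), so its place among these 5 is not fixed by 3 libraries. *Abcg1* (69.5) was above *Mylip* (46.8) without overlap, *Soat1* (39.1) overlapped *Mylip*, and *Nr1h2* (10.7) and *Nr1h3* (2.75) were below the others without overlap. In CD45hi cells of CD-fed mice the lead was shared by *Npc1* (179) and *Npc2* (167), followed by *Lipa* (106), and from *Plin2* through *Abca1* (85.3), *Abcg1* (53.7), *Soat1* (44.6) and *Mylip* (44.3) each gene overlapped the next.

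**Figure D3:**
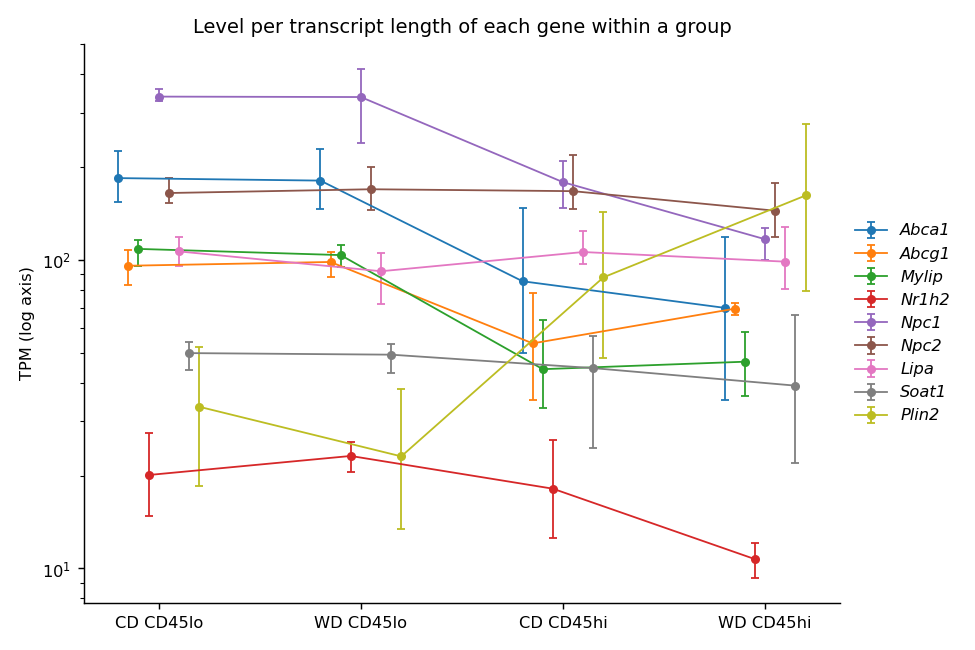
Mean TPM per group on a log axis, with bars from the lowest to the highest library and lines joining each gene; *Nr1h3* (0.265 to 2.75 mean TPM) is left out. *Plin2* crosses from near the bottom in CD45lo cells (33.4 and 23.1) to the top in WD CD45hi cells (162), while *Npc1* leads in CD45lo cells.

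TPM is not on the scale used for the tests. For the 7963 genes at 10 TPM or more, differences of CD45hi minus CD45lo cells were taken on log2(TPM + 1). The median of these differences was -0.48 in CD-fed and -0.54 in WD-fed mice. The median log2 fold change of the same genes on cpm was 0.04 and 0.08. On unadjusted TPM the direction of *Lipa*, *Soat1* and *Nr1h2* in CD-fed mice and of *Npc2* and *Soat1* in WD-fed mice was therefore the opposite of that on cpm, and relative to the median it was the same for these genes. *Abcg1* in WD-fed mice had opposite signs (0.04 on TPM relative to the median, -0.02 on cpm). *Abca1* had -0.73 and -0.97 on TPM relative to the median, against -0.40 and -0.55 on cpm. *Nr1h3* is left out of this comparison for its few counts. *Plin2* was higher on both scales, by 1.83 and 3.21 relative to the median on TPM.

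Western diet changed none of the 10 genes past the threshold in either cell type. In CD45hi cells 0 of 10 were called, and over all genes 0.0601% were called higher and 0.194% lower in WD-fed mice (edgeR glmQLFTest). Of the 9 other than *Nr1h3* 1 (*Abcg1*) had an unadjusted p under 0.05, as had 2628 of all 14967 genes. Under DESeq2 and limma-voom 0 of 10 were called too. The diets overlapped for each of the 10 genes, while 5.77% of all genes did not overlap. *Plin2* was 1.81-fold higher in CD45hi cells of WD-fed mice (log2 fold change 0.86, 95% interval -0.01 to 1.72, edgeR's glmQLFTest, FDR = 0.290), and this was 0.41 without both libraries that stood apart. *Abcg1* was 1.39-fold higher (0.47, 0.01 to 0.94, edgeR's glmQLFTest, FDR = 0.273), and this was 0.69 without them (edgeR's glmQLFTest, FDR = 0.124). Marker lists of other cells also differed between the diets in CD45hi cells, with no gene called. The 8 neutrophil markers were all lower in WD-fed mice (median log2 fold change -1.35, 4 at an unadjusted p under 0.05, 0 called, sums of 669 to 1335 against 1077 to 2857 cpm), and 3 of 4 astrocyte markers were higher, with 3 of the 4 at an unadjusted p under 0.05 and 0 called (sums of 57.5 to 241 against 38.8 to 86.1 cpm). The lymphocyte list had 4 of 5 tested genes and the monocyte list 4 of 6 above 0 (sums of 24.6 to 97.5 against 11.7 to 41.7 cpm, and of 472 to 778 against 390 to 763 cpm). The oligodendrocyte list had 3 of 4 and the neuron list 2 of 3 tested genes above 0, each with 2 at an unadjusted p under 0.05. Of 6 border macrophage markers 1 lay above 0 (sums of 620 to 2349 against 1710 to 1863 cpm). For the remaining lists, 2 of 8 microglial, 3 of 5 dendritic cell and 4 of 5 endothelial and pericyte genes lay above 0. The part of these cells in the diet values was not tested.

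The other LXR targets of the set lay on both sides of 0 in CD45hi cells. *Abca1* had a log2 fold change of -0.23 (95% interval -0.66 to 0.21) and *Mylip* of 0.15 (-0.33 to 0.63), and both turned sign without the libraries that stood apart, to 0.02 and -0.003. *Nr1h2*, the gene of a receptor and not a readout, had -0.55 (-1.43 to 0.33). *Nr1h3* is described by its counts alone, for the reason given with them. Of the genes of lysosomal release and esterification, *Npc1* had -0.04 (-0.39 to 0.31), *Npc2* -0.15 (-0.56 to 0.25), *Lipa* -0.03 (-0.45 to 0.40) and *Soat1* -0.07 (-0.74 to 0.59). In fold, the upper bound was 1.19 for *Npc2*, 1.24 for *Npc1* and 1.31 for *Lipa*.

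In CD45lo cells the diets did not separate any gene of the set. Of the 10 genes 0 were called, 0 had an unadjusted p under 0.05 and 0 did not overlap. Over all genes 0% were called higher, 0% lower and 2.42% did not overlap, and 123 of 14967 had an unadjusted p under 0.05. DESeq2 and limma-voom also called 0 of 10. *Npc1* had a log2 fold change of -0.001 (95% interval -0.32 to 0.32), *Abca1* -0.08 (-0.48 to 0.32), *Abcg1* 0.03 (-0.40 to 0.46), *Npc2* 0.03 (-0.34 to 0.41), *Mylip* -0.07 (-0.52 to 0.38) and *Lipa* -0.23 (-0.62 to 0.17). For *Npc1* the interval in fold is 0.799 to 1.25. The intervals were wider for 3 genes, with *Soat1* at -0.02 (-0.63 to 0.59), *Nr1h2* at 0.26 (-0.54 to 1.07) and *Plin2* at -0.55 (-1.37 to 0.26).

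**Figure D4:**
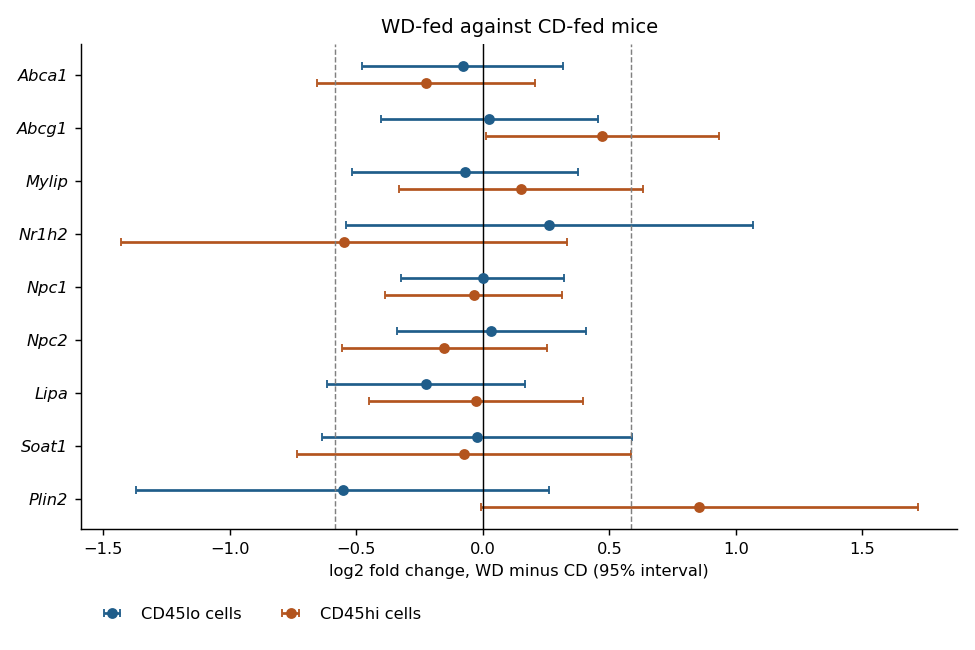
Log2 fold changes of WD-fed over CD-fed mice with 95% intervals in CD45lo (blue) and CD45hi cells (orange), with dashed lines at 1.5-fold; *Nr1h3* is left out for its low counts. Only the interval of *Abcg1* in CD45hi cells (0.01 to 0.94) does not reach 0 among these 9 genes, and it did not pass after adjustment; *Plin2* lies on opposite sides of 0 in the 2 cell types.

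The difference between the cell types in the response to diet was tested as an interaction. For *Plin2* the signs were opposite (0.86 in CD45hi and -0.55 in CD45lo cells), and the interaction was 1.41 on the log2 scale (SE 0.562, 95% interval 0.22 to 2.60, edgeR's glmQLFTest, FDR = 0.418), which did not pass. For *Abcg1* it was 0.45 (SE 0.299, edgeR's glmQLFTest, FDR = 0.667). None of the 10 was called by edgeR, DESeq2 or limma-voom, and over all genes 0% were called higher and 0.00668% lower. An unadjusted p under 0.05 was found for 1 of the 10 (*Plin2*) and for 1515 of all 14967 genes.

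Genes around the set were read from fixed lists. Of 14 other LXR targets 11 were tested. In CD-fed mice 4 were called higher and 1 lower in CD45hi than in CD45lo cells, against 3.39% and 0.588% of all genes. In WD-fed mice 5, with *Apoc2* among them, were called higher and 1 lower, against 4.01% and 1.17% of all genes. The medians were 0.86 and 2.32, against 0.04 and 0 for all genes. The list went both ways, with 7 and 6 of the 11 above 0, and the gene at the WD median is *Scd1*, which was not called (a mean of 13.3 against 2.66 cpm). The higher ones were *Apoe*, the apolipoprotein that accepts exported lipid (1632 ± 456 against 116 ± 24.6 cpm in CD-fed mice, SD, n = 4 each, 14.1-fold, and 15.6-fold in WD-fed mice), *Pltp*, a phospholipid transfer protein (16.5-fold and 7.91-fold), *Smpdl3a*, a secreted phosphodiesterase (4.53-fold and 5.27-fold), and *Lpl*, lipoprotein lipase (4.07-fold and 5.24-fold). *Apoc2*, the activator of *Lpl*, was called in WD-fed mice only. It passed the filter on low counts only through CD45hi libraries, where it was high. Its call is therefore no support, and no fold change or FDR is given for it. In WD-fed mice it had 3.69 to 11.1 cpm in CD45hi cells and at most 1 count in CD45lo cells. The levels in CD-fed mice were 0.088 to 6.16 cpm in CD45hi cells and at most 3 counts in CD45lo cells. *Mertk*, a receptor for engulfing dying cells, was the lower one (0.488-fold and 0.436-fold). *Lpcat3*, an enzyme that remodels phospholipids, and *Arl4c*, a small GTPase, were not called and had log2 fold changes of -1.01 and -1.32 and of -0.75 and -0.51, without overlap. Without the fold threshold *Lpcat3* passed on both diets (edgeR's glmQLFTest, FDR = 0.0344 and 0.0114) and *Arl4c* in CD-fed mice (0.0057). These 2 genes and *Scd1* were named after their values were seen. *Abca1* and *Mylip*, LXR targets as well, had lower mean levels in CD45hi cells and were not called. The counts of *Lpl* and *Pltp* were not whole in 15 of 15 libraries.

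Among the oxysterol enzymes and the partners of the LXRs, fewer genes were called. The shares of all genes called were 3.39% higher and 0.588% lower in CD-fed mice, and 4.01% and 1.17% in WD-fed mice. *Cyp27a1*, a mitochondrial sterol hydroxylase that makes an oxysterol, was the one called of 4 oxysterol enzymes tested, 3.48-fold and 3.56-fold higher in CD45hi cells of CD- and WD-fed mice. Of 9 partners and coregulators of the LXRs, *Nrip1*, a corepressor, was called lower in WD-fed mice (0.408-fold, edgeR's glmTreat, FDR = 0.0107), with 0.541-fold in CD-fed mice (edgeR's glmTreat, FDR = 0.197).

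Other lipid droplet genes were read in the same way. Of 21 other droplet and neutral lipid genes 15 were tested. In CD-fed mice 0 were called, where 3.39% of all genes were called higher and 0.588% lower. In WD-fed mice 1 was called, higher, where the shares of all genes were 4.01% and 1.17%. The medians were 0.69 and 0.29, against 0.04 and 0 for all genes. In CD-fed mice 12 of the 15 lay above 0, and 6 had an unadjusted p under 0.05, as had 3006 of all 14967 genes. Without the fold threshold 2 were called higher and 0 lower, against 8.03% of all genes. They were *G0s2* and *Nceh1*, a cholesteryl ester hydrolase named after its values were seen (edgeR's glmQLFTest, FDR = 0.0407). The gene called in WD-fed mice was also *G0s2*, an inhibitor of the main triglyceride lipase, at 0.268 to 11.3 cpm in CD45hi and at most 5 counts in CD45lo libraries. Its groups overlapped in WD-fed mice. In CD-fed mice it had 14.3 to 18.1 cpm in CD45hi and 0 to 1.99 cpm in CD45lo libraries. *G0s2* passed the filter on low counts through the CD45hi libraries, where it was high. Its calls are therefore no support for the list, and no FDR is given for it. Without the fold threshold 1 was called higher in WD-fed mice, again *G0s2*, and 1 lower, *Mgll*, against 9.12% of all genes. *Mgll*, named after its values were seen, had a log2 fold change of -2.27 (edgeR's glmQLFTest, FDR = 0.0497), and -1.77 in CD-fed mice (0.0912), without overlap on either diet. Of 8 sterol transfer proteins tested, 0 were called on either diet by edgeR glmTreat. In CD- and WD-fed mice 0 and 1 had an unadjusted p under 0.05, against 3006 and 3671 of all 14967 genes. No gene of these lists was called between the diets or for the interaction. The lowest FDRs for the diet in CD45hi cells among the genes named here were those of *Lpl* and *Rxra*, a partner of the LXRs that was named after its values were seen. *Lpl* had 114 ± 36.1 cpm (SD, n = 4) in CD45hi cells of CD-fed and 203 ± 16.9 cpm (SD, n = 3) of WD-fed mice, without overlap (log2 fold change 0.83, SE 0.228, edgeR's glmQLFTest, FDR = 0.104). *Rxra* went the other way, with 84.2 ± 28.1 cpm (SD, n = 4) and 42.7 ± 7.69 cpm (SD, n = 3), also without overlap (-0.98, SE 0.281, edgeR's glmQLFTest, FDR = 0.114).

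**Figure D5:**
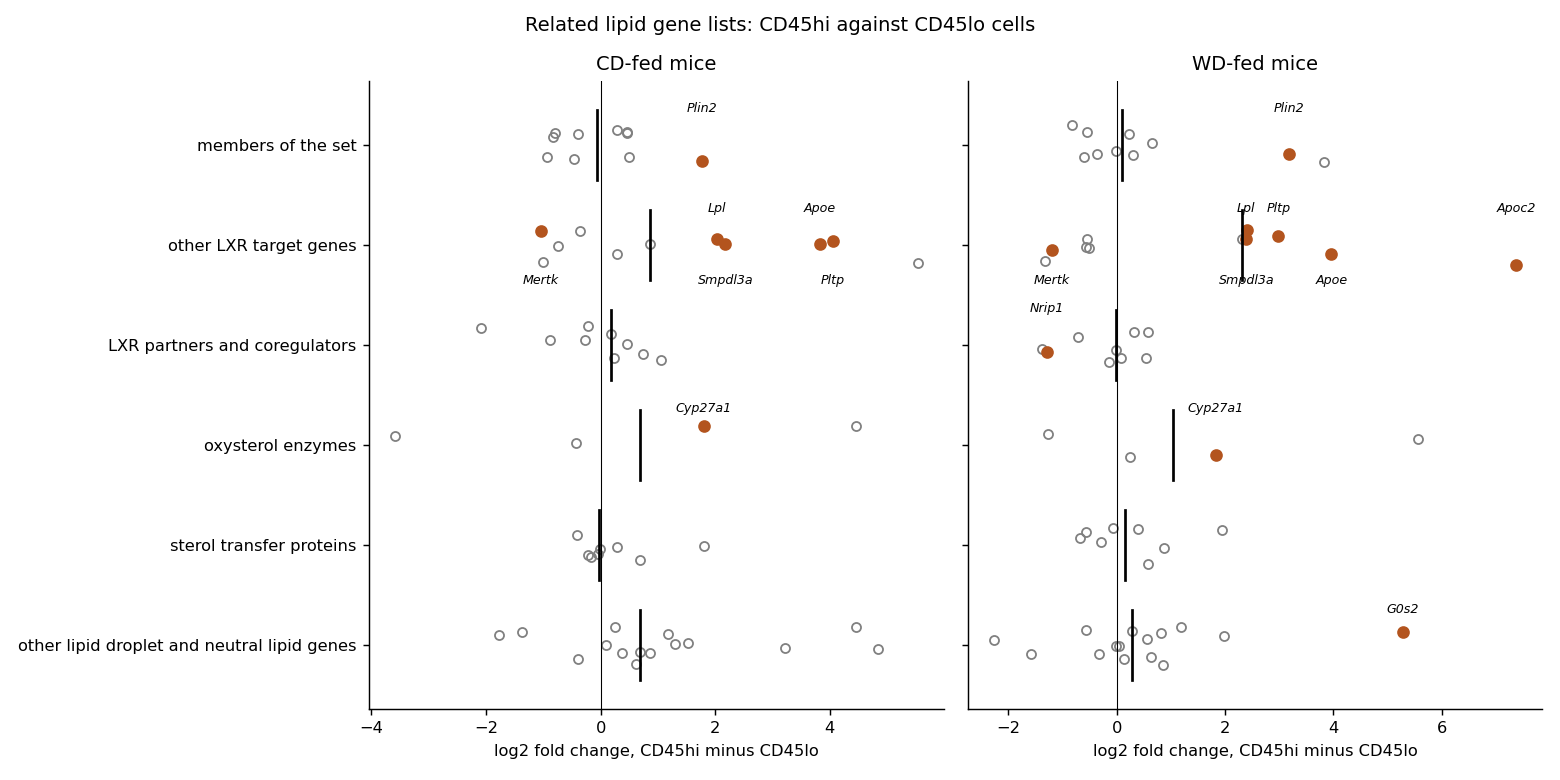
Log2 fold changes of CD45hi over CD45lo cells for each gene tested of the set and of 5 related lists, in CD-fed (left) and WD-fed mice (right); filled points were called by edgeR glmTreat and carry their symbol, open points were not, and black lines are list medians. *Apoe*, *Pltp*, *Lpl*, *Smpdl3a*, *Cyp27a1* and *Plin2* are filled to the right in both panels and *Mertk* to the left. The points and the median of the set include *Nr1h3*. *Nr1h3*, *Apoc2* and *G0s2* passed the filter on low counts through CD45hi libraries, where they were high.

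Across the 15 libraries, the genes whose log2 cpm pattern lay nearest to that of each member were found by the root mean square (RMS) difference after centring. For *Plin2* these were *Psd3* (0.456), *Flna* (0.471) and *Tpm4* (0.513), for *Abca1* *Nek7* (0.150), *Hadha* (0.150) and *Arhgap17* (0.154), and for *Npc1* *Ddx26b* (0.158), *Acp2* (0.165) and *Ctsl* (0.169). *Abcg1* was nearest to *Pdia3* (0.191), *Mylip* to *Atp6v0a2* (0.194), *Npc2* to *Tmem127* (0.141), *Lipa* to *Clic1* (0.176), *Soat1* to *Phc3* (0.230), *Nr1h2* to *Prr14* (0.169) and *Nr1h3* to *Clcn1* (0.818). No gene lay as near to *Plin2* or *Nr1h3* as the nearest ones did to the other 8 members. No member was among the 3 nearest genes of another. The points share their libraries and depth, and the values are descriptions.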

How the data were processed

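RNA-seq libraries of FACS-sorted brain myeloid cells were analysed as deposited. The authors estimated counts with RSEM 1.2.12 (version from the submitters' processing notes) on mm10 and deposited per gene an expected count, not normalized, and a TPM value, scaled to gene length and library. The annotation release, strand setting and platform of each library are not given in the sources used here. RSEM shares reads between copies and overlapping genes, which makes fractional counts uncertain.

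Expected counts were rounded, filtered (at least 1 cpm in at least 2 of 15 libraries), TMM-normalized and fitted with edgeR 4.0.16 (R 4.3.3, estimateDisp, glmQLFit in its earlier form), with all 4 groups in one fit. CD45hi and CD45lo cells were compared with glmTreat at 1.5-fold, and diets and the interaction with glmQLFTest, at a Benjamini-Hochberg FDR under 0.05 over all 14967 genes. TPM served to compare levels between genes. The computation was tested on simulated data. The 21 replicate pairs held 0 identical pairs.

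The genes and lists were chosen with earlier results of these data known. A further list is not reported here. Named are all 10 members, genes of the related lists called between any 2 groups, and the nearest genes by pattern. Further genes of the lists that were not called are marked in the text as named after their values were seen. Coordinates are those of GENCODE M21 on mm10. Alternatives were DESeq2 1.42.0, limma 3.58.1, other scalings, filters and fits, replicate blocks and leaving out libraries.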

Additional observations from a re-analysis of the deposited data

Results flagged for a closer look

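*Npc2* in CD45hi cells of CD-fed mice had one library far from the others of its group. Replicate 4 had 535 cpm (535.3), and the other 3 libraries had 307 to 342 cpm. Its gap to the nearest library was 0.85 of the whole range of the group. Among the 10 genes, 30 groups of 4 libraries were examined in this way, and chance flags about 1 in 20 groups. The same library stood apart on the second principal component (93.0), and without it and WD CD45hi replicate 1 the log2 fold change of *Npc2* between CD45hi and CD45lo cells of CD-fed mice was 0.29.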

How the results depend on the processing

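Of the members, 1 was called between CD45hi and CD45lo cells of CD-fed mice; 3 were called with DESeq2 and with glmQLFTest with or without a fold limit set afterwards, and 0 with limma-voom, with only the 2 groups compared, with the replicate block by sample titles or by file name numbers, and with limma on log2(TPM + 1), an alternative chosen after seeing the data. Leaving out 1 library gave 0 to 1. In WD-fed mice the count was 1, and 3 with DESeq2 and with glmQLFTest with or without a fold limit, 2 with log2(TPM + 1), and 1 to 1 on leaving out a library. Between diets and for the interaction 0 members were called under all alternatives. CD45hi and CD45lo libraries of the same number had correlations of -0.022 to 0.069 by titles and 0 to 0.069 by file names (7 pairs each). Pairs of unlike number were not set beside them, so these values do not decide whether 2 libraries came from one animal. The replicate block changed no other call of a member. Over all genes, the diet comparison in CD45hi cells gave 38 calls and 0 to 1030 over the alternatives, the cell type comparisons 595 (396 to 1794) and 775 (353 to 2296), diet in CD45lo cells 0 (up to 4), and the interaction 1 (up to 188).

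No value below was called in either direction. Reversed log2 fold changes of CD45hi against CD45lo cells were, on log2(TPM + 1), a scale whose median differs between the cell types, -0.15 (*Nr1h2*), -0.0091 (*Lipa*) and -0.22 (*Soat1*) in CD-fed and -0.24 (*Npc2*) and -0.48 (*Soat1*) in WD-fed mice. *Abcg1* in WD-fed mice was 0.0298 with DESeq2, 0.0296 with its size factors, 0.0061 with a stricter filter, 0.0103 with the replicate block by titles, 0.14 without both libraries apart on the second component, and -0.16 to 0.14 on leaving out 1 library, and *Soat1* was -0.42 to 0.53. Between diets in CD45hi cells, *Npc1* was 0.0247 with limma-voom, and without both libraries *Abca1* was 0.0151, *Mylip* -0.0026, *Npc2* 0.0948 and *Lipa* 0.19. Leaving out 1 library gave ranges of -0.17 to 0.0643 (*Npc1*), -0.73 to 0.22 (*Soat1*), -0.31 to 0.0595 (*Npc2*), -0.29 to 0.12 (*Lipa*) and -0.036 to 0.37 (*Mylip*). In CD45lo cells *Nr1h3* was 0.11 on log2(TPM + 1), and the ranges were -0.0719 to 0.0664 (*Npc1*), -0.0793 to 0.0144 (*Soat1*), -1.20 to 0.38 (*Nr1h3*), -0.0305 to 0.0879 (*Abcg1*) and -0.0357 to 0.0921 (*Npc2*). The cause was not tested. Depth limits *Nr1h3*, for which most libraries hold 0 to 9 counts, and its fold changes are not listed. Its direction between diets in CD45lo cells reversed under 4 of 25 alternatives.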

Other observations

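For some of these genes the cell types and diets differed in the effective length that the deposited tables give, a mean over transcripts weighted by their estimated share. The median for *Abca1* was 9696 bases in CD45hi (4823 to 10103) and 6490 in CD45lo cells (6117 to 6855) of CD-fed mice, and 9720 (5715 to 10101) and 6502 (5301 to 7036) in WD-fed mice. For *Npc1* it was 1929 bases in CD45hi cells of CD-fed mice (1642 to 2826) and 2762 in those of WD-fed mice (2705 to 3298). In the latter comparison *Npc1* had 147 to 210 TPM in CD-fed and 100 to 127 TPM in WD-fed mice, a log2 difference of -0.60, while on cpm it was -0.04. For *Mylip* it lay within 2887 to 2903 bases over all libraries, for *Lipa* within 2793 to 2810, for *Npc2* within 3086 to 3102 and for *Soat1* within 4610 to 4626. The transcripts behind these lengths were not analysed here.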
